A study of Solanum lycopersicum with 2 samples.

Results

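The SlWUS peaks on tomato chromosome 2 are 4882 of the 65452 binding regions listed for the transcription factor SlWUS, or 7.46% of them, and comprise every listed region placed on that chromosome in the SL4.0 build. They were measured by DAP-seq, in which a tagged protein pulls bound fragments out of a library of purified genomic DNA, so the regions show which DNA the protein can bind when chromatin is absent. The series holds 1 library pulled down with the factor, titled WUSCHEL, and 1 input library, both made from the tomato cultivar Ailsa Craig. The plants were kept in a greenhouse with 16 h of light at 25 °C and 8 h of darkness at 15 °C. The labels give the flower abscission zone as the source and the word Halo, a tag used to purify proteins. They give no mutant, transgene, treatment or age, and genomic DNA carries no expression marker by which the named tissue could be checked. With 1 library per group no spread between replicates exists, and intervals below cover counting error only, taking peaks as independent.

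WUSCHEL is a homeodomain transcription factor that keeps the stem cells of plant meristems undifferentiated, and the peptide CLV3 limits its expression in a feedback loop. Tomato chromosomes have gene-rich euchromatin towards both ends and repeat-rich heterochromatin around the centromere. Chromosome 2 is the exception in shape: it is acrocentric, its short arm is small and heterochromatic and carries the nucleolus organizer with the ribosomal RNA genes, and its euchromatin lies on the long arm. Map numbering is generally taken to start at the short arm, but the peak list holds no centromere position by which this could be checked, so the parts of the chromosome are called the origin side and the far side, not arms.

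The part of chromosome 2 next to the origin was sparse in SlWUS peaks, and the far part was dense up to its tip. The first 10% of the span held 305 peaks at 57.2 per Mb (exact Poisson 95% interval 50.9 to 64.0), and the last 10% held 732 peaks at 137 per Mb (127 to 148). The last 10% was thus 2.40 times as dense as the first. Peaks were reached late along the chromosome, with 68.7% of them beyond the midpoint of the span and the median peak at 67.4% of it. The highest values elsewhere were not far below, at 61.8% beyond the midpoint on chromosome 1 and a median peak at 64.6% on chromosome 6. The span, taken to the end of the last peak, was 53.3 Mb, and the first peak started at position 15560, so the sparse start is not a stretch without any listed peak.

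Going along the chromosome in steps of 10% of the span, density was 57.2, 51.7 and 46.9 peaks per Mb in the first 3 steps. It was 58.9, 71.99 and 72.2 per Mb in the next 3. It then rose to 136 per Mb between 60% and 70% and stayed at 148, 135 and 137 per Mb to the end. The 4 steps on the far side lay within 1.097 times of each other, while none of the first 6 exceeded 72.2 per Mb. The densest step was the one from 70% to 80%, not the tip.

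**Figure D1:**
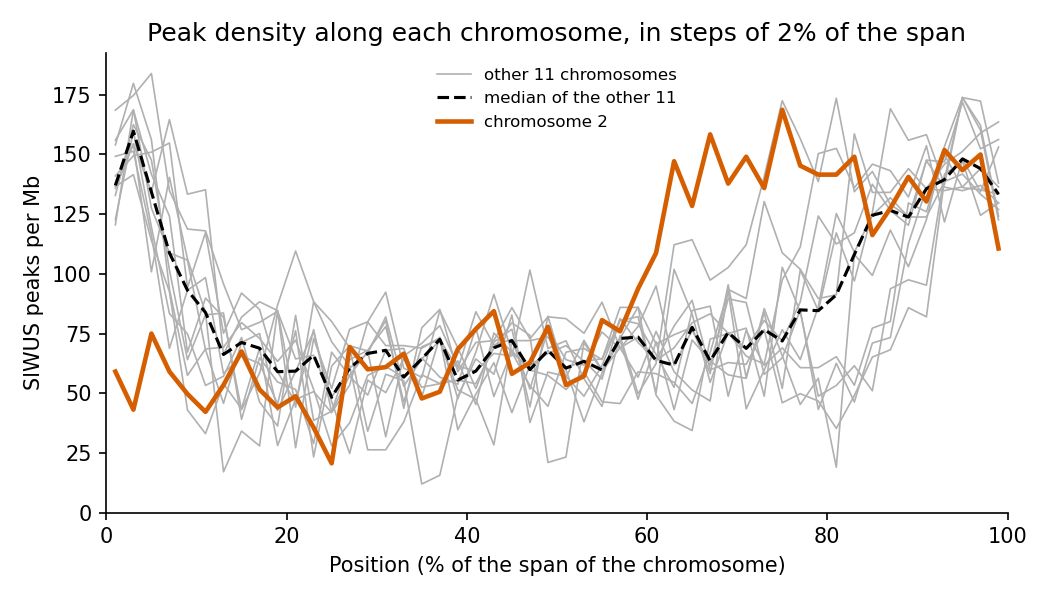
Peaks per Mb (vertical axis) against position in % of the span (horizontal axis), in steps of 2%, for chromosome 2 (orange), the other 11 chromosomes (grey) and their median (dashed black). The other chromosomes are dense at both ends, whereas chromosome 2 starts low and is dense beyond about 60% of its span.

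No other chromosome was as one-sided. The last 30% of chromosome 2 held 2242 peaks and the first 30% held 831, a ratio of 2.70 (exact binomial 95% interval 2.49 to 2.93). On the other 11 chromosomes this ratio ran from 0.819 on chromosome 5 to 1.86 on chromosome 1, with a median of 1.31, and the interval of chromosome 1, 1.75 to 1.96, does not meet that of chromosome 2. Chromosome 2 ranked first of 12 by the size of the ratio on a log2 scale, at 1.43 against at most 0.89 elsewhere. These ratios are ranked and not tested, since 1 chromosome stands against 11 in 1 library.

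It was the origin end, and not the far end, that lay outside the range of the other chromosome ends. At 57.2 peaks per Mb the first 10% of chromosome 2 was the sparsest of the 24 chromosome ends. The next sparsest was the first 10% of chromosome 1 at 106 per Mb (98.9 to 112), and the highest was the first 10% of chromosome 5 at 156. The far end of chromosome 2, at 137 per Mb, was 10th from the highest and lay amid the other far ends, which ran from 128 to 155 per Mb.

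**Figure D2:**
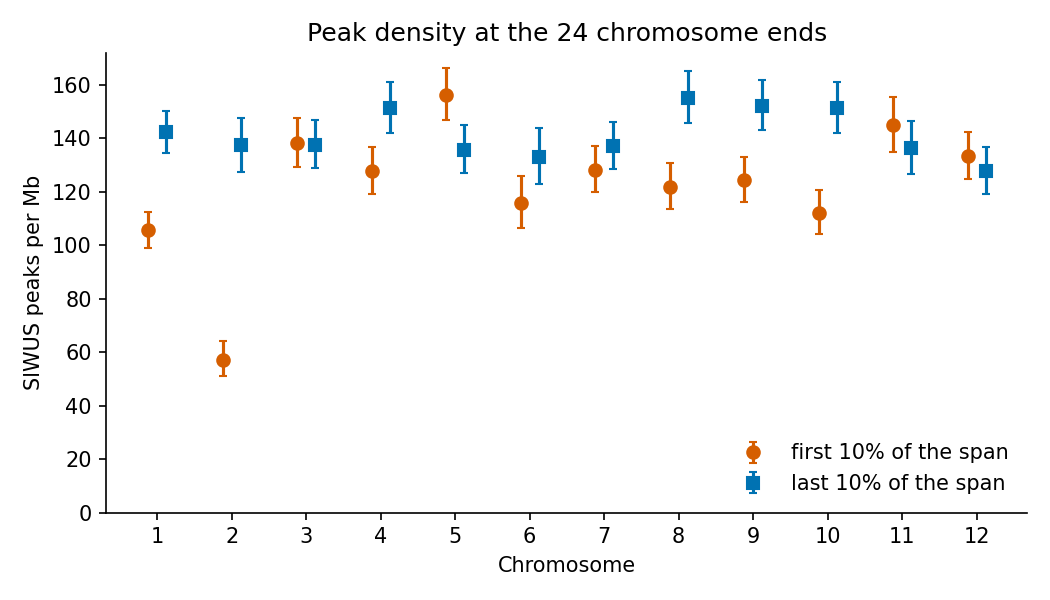
Peaks per Mb (vertical axis) in the first 10% (orange circles) and the last 10% (blue squares) of the span of each chromosome (horizontal axis), with exact Poisson 95% intervals. The first 10% of chromosome 2, at 57.2 per Mb, lies below the other 23 ends, which begin at 106 per Mb.

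In median fold, width and background the origin end also lay outside the range of the other chromosome ends and within that of the chromosome centres, taken from 30% to 70% of the span. The median number of fragments at the summit, 29, was within the 29 to 32 of the other ends. The median fold enrichment over background, the authors' value for each peak, was 4.53 (95% interval 4.14 to 4.79) in the first 10% of chromosome 2. It was 4.05 to 4.39 at the 23 other ends and 4.33 to 4.59 in the 11 other centres. The interval reaches into the range of the ends, so the fold alone does not separate the origin end from them.

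Peak width showed the same placement. The median peak of the first 10% was 301 bp wide (288 to 316), below all 23 other ends (311 to 336 bp) and within the range of the 11 centres (296 to 308 bp), though its interval reaches the narrowest ends. Peaks of at least 1000 bp made up 0.656% of it, which is 2 of 305, against 1.41% to 3.11% at the other ends. The interval of that share, 0.0795% to 2.35%, overlaps the other ends.

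The background at each peak, the number of fragments expected there without enrichment and the only trace of the input library in the peak list, was lower too. Its median was 5.87 fragments (5.68 to 6.11) in the first 10% of chromosome 2, 6.11 to 6.55 at the 23 other ends and 5.797 to 5.98 in the 11 other centres. The interval reaches the lowest of the other ends. The background stood at its lowest value, 4.08 fragments, in 12.8% of the origin-end peaks (9.25% to 17.1%), against 0.796% to 6.58% at the other ends and 8.71% to 10.6% in the centres. Density, fold, width and background thus moved together, and the part of the background in the other measures was not tested. Fold is a ratio to this background, so it is not a separate measure from it.

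Close neighbours were rare at the origin end. The median distance between neighbouring summits there was 10699 bp (8751 to 12307), wider than at any other end (3297 to 4689 bp) and in any other centre (7024 to 9877 bp). Among distances of at least 500 bp, 13.5% were at most 2000 bp (41 of 304, 9.86% to 17.8%), against 24.6% to 33.8% at the other ends and 15.1% to 20.8% in the centres. The intervals of both measures reach into the range of the centres and stay outside that of the ends. At least 20-fold enrichment was found in 11 of 305 peaks, or 3.61% (1.81% to 6.36%), against 0.405% to 2.25% at the other ends and 1.82% to 3.49% in the centres. Over all 65452 peaks 1.99% passed 20-fold, a share within the interval of the origin end. Per Mb the origin end had 2.06 peaks past 20-fold, within the range of the other ends, of which 15 had fewer and 8 had more.

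**Figure D3:**
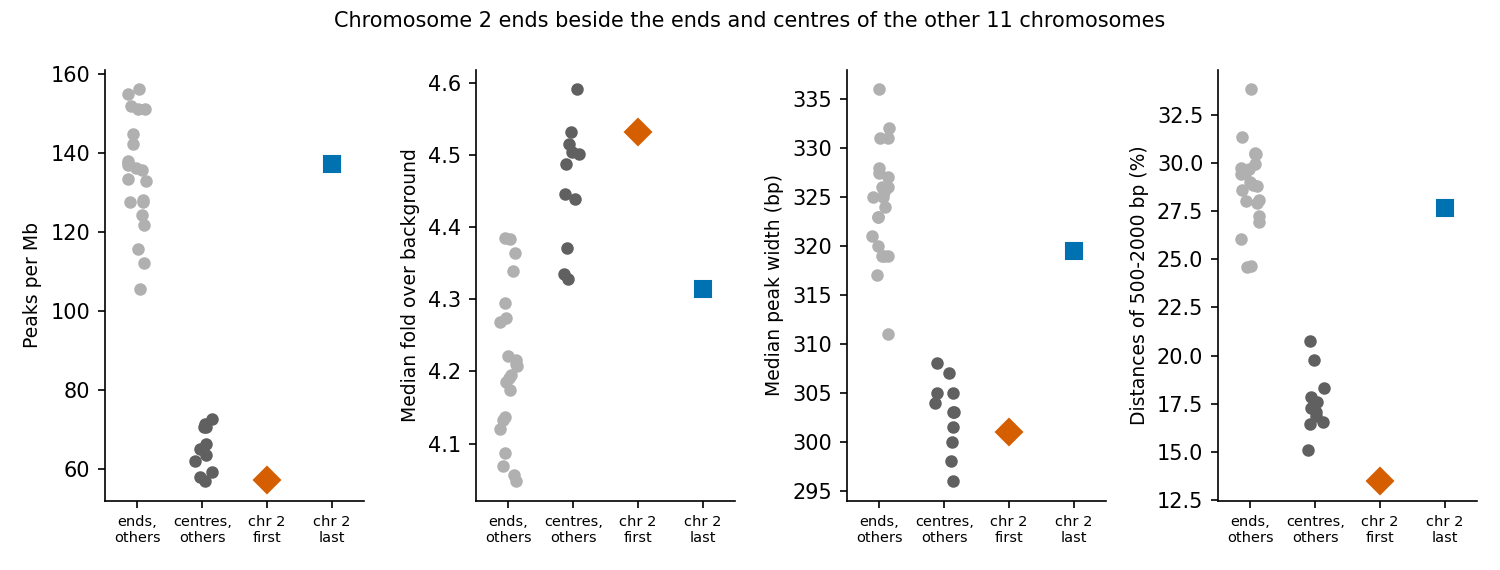
Peaks per Mb, median fold over background, median width in bp and the share of neighbour distances of 500 to 2000 bp, for the 22 ends and 11 centres of the other chromosomes (grey and dark grey circles) and for the first 10% (orange) and last 10% (blue) of chromosome 2. In all 4 panels the first 10% of chromosome 2 lies outside the range of the ends and the last 10% lies within it.

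The position that best split it into a sparse and a dense stretch, by the likelihood of a constant density on each side over 100 kb windows, was 31300000, at 58.7% of the span. The origin side then held 1823 peaks on 31.3 Mb at 58.2 per Mb (55.6 to 61.0), and the far side 3059 peaks on 22.04 Mb at 139 per Mb (134 to 144). The density changed 2.38 times at this step, the highest value of the 12 chromosomes, on which the same procedure gave 1.66 to 2.098 elsewhere. Since the boundary was placed by density, this contrast in density is a description. The other chromosomes are dense at both ends, so a single boundary leaves a dense end on their sparse side and lowers their value. Windows of 1 Mb with at least 100 peaks averaged 140 per Mb on chromosome 2 and 131 to 143 on the others. The remaining windows averaged 59.8 per Mb on chromosome 2 and 59.7 to 69.8 on the others.

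Counts changed sharply next to the boundary and less so over the surrounding megabases. The boundary was placed by these same counts of 100 kb windows, a procedure that favours a sharp change beside it. The 5 windows of 100 kb from 30800001 to 31300000 held 1, 2, 2, 0 and 5 peaks. The next 3, from 31300001 to 31600000, held 15, 13 and 18. A short dense patch preceded the boundary, with 18, 12 and 15 peaks in the 3 windows from 30400001 to 30700000. The 1 Mb window around the boundary, from 31000001, held 98 peaks, the one from 32000001 held 107 and the one from 33000001 held 152.

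On the origin side the 31 full 1 Mb windows held 29 to 91 peaks, with a median of 61. The fewest were found in the windows from 10000001 to 11000000 with 29 peaks, from 12000001 to 13000000 with 32 and from 13000001 to 14000000 with 34. Within the origin side the lowest stretch was thus not at the tip but between 18.7% and 26.2% of the span. The 21 full windows beyond the boundary held 107 to 180, with a median of 140. The window from 40000001 to 41000000 held the most, followed by that from 37000001 to 38000000 with 155 and those from 33000001 and from 50000001 with 152 each.

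Dense windows were gathered in a single block. Counting 1 Mb windows of at least 100 peaks, a limit set after the profile had been seen, chromosome 2 had 21 of 53, or 39.6%, and all 21 followed each other without a break from 32000001. This run shortened to 12 windows with a limit of 120 peaks, and to 7, rank 4 of 12, when only peaks with a −log10 q of at least 5 were counted. Chromosome 1 had a run of 22 among 29 dense windows, on a span of 90.8 Mb. Chromosome 6 had 21 dense windows of 47, or 44.7%, with a longest run of 14. The other chromosomes had longest runs of 6 to 13. The total density of chromosome 2, 91.5 per Mb (89.0 to 94.1), was the third highest, although its windows outside the dense block averaged 59.8 peaks, the second lowest of 12.

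With the limit of 100 peaks, counts were slightly more even in the dense block of chromosome 2 than in the dense windows of the other chromosomes. Over its 100 kb windows the variance of the count was 1.39 times the mean, against 1.46 to 2.19 elsewhere. In the remaining windows the order was the opposite, with a ratio of 2.83 on chromosome 2 and 1.89 to 2.69 on the other 11. Counts that were evenly random would have a ratio of 1. Both ratios of chromosome 2 were higher, so the Poisson intervals of density above, which take peaks as independent, may be too narrow. No interval was computed for these ratios, and the order depends on how the windows are divided. Divided at the step instead, the ratio was 1.459 on the far side, not below the lowest value elsewhere, 1.456. On the origin side it was 2.70. The origin side had 22 of 313 windows of 100 kb without a peak, and the far side 1 of 220.

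Distances between peaks differed accordingly. The sides were split by density, and wider spacing goes with lower density, so these distances restate the contrast in density. The median distance between summits was 8492 bp on the origin side (95% interval 7878 to 9205) and 4360 bp on the far side (4071 to 4634). Distances of 500 to 2000 bp made up 18.1% of those of at least 500 bp on the origin side (16.4% to 19.98%) and 27.0% on the far side (25.5% to 28.7%). Gaps over 50 kb between summits numbered 119 on the origin side and 16 on the far side. Over the whole chromosome the median distance was 5372 bp, shorter than on 10 of the other 11 chromosomes, and only chromosome 6 had a shorter one, at 5148 bp.

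The 3 longest stretches without a peak lay on the origin side, which is the sparser side by the placing of the boundary. They spanned 453985 bp from 9225385 to 9679369, 377453 bp from 28450109 to 28827561, and 328764 bp from 12900296 to 13229059. On the far side the longest was 219006 bp, from 34952706 to 35171711. Chromosome 2 had no stretch as long as the 568514 bp between summits that was the median of the longest distances of the other 11 chromosomes. The peak list does not say whether sequencing reads can be mapped uniquely there.

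Peaks on the 2 sides differed little in fragment number and slightly in width and fold. The median summit was covered by 29 fragments on the origin side (95% interval 28 to 30) and 30 on the far side (30 to 31). Median width was 306 bp (298 to 313) against 318 bp (312 to 322), and peaks of at least 1000 bp made up 0.768% (0.420% to 1.29%) against 1.93% (1.47% to 2.48%). Median fold was 4.47 (4.34 to 4.53) against 4.18 (4.13 to 4.29). The intervals take peaks as independent and were not used as a test. Those of fold and of the share of wide peaks do not meet between the sides, and those of median width overlap by 1 bp. Beside them the median background was 5.82 fragments on the origin side (5.71 to 5.95) and 6.40 on the far side (6.34 to 6.46), and its part in these differences was not tested. Since fold is a ratio to this background, it is not a separate measure from it.

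Far-side peaks were wider at equal fold as well. Among peaks up to the 25th percentile of fold the median width was 253 bp on the origin side and 270 bp on the far side, and from 10- to 20-fold it was 409 against 458 bp. This held in each class up to 50-fold. The direction was shared by the other chromosomes: dense windows had the higher median width and background and the lower median fold on 12 of 12. Within its dense windows chromosome 2 had a median width of 318 bp, below the 319 to 333 bp of the other 11, and a median background of 6.43 fragments, above their 6.16 to 6.38.

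The 3 widest peaks were on the far side. They ran from 52362736 to 52364921 (2186 bp, 6.53-fold), from 39314830 to 39316769 (1940 bp, 18.0-fold) and from 38776576 to 38778497 (1922 bp, 14.2-fold). The 10 strongest peaks, at 54.8-fold or more, were 455 to 558 bp wide. The SlWUS-bound sequence covered 2.09% of the origin side and 5.32% of the far side.

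In the share of strong peaks chromosome 2 as a whole lay close to the genome. Enrichment passed 10-fold in 439 of its peaks, or 8.99% (exact binomial 95% interval 8.20% to 9.83%), against 9.23% of all peaks. It passed 20-fold in 94 peaks, or 1.93% (1.56% to 2.35%), against the 1.99% of all peaks given above, and 50-fold in 10 peaks, or 0.205% (0.0983% to 0.376%), against 0.252%. Each interval holds the share over all chromosomes. The strongest 1% of all peaks, of at least 27.3-fold, took in 49 peaks of chromosome 2, or 1.004% of its own.

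Of the 10 peaks past 50-fold, 9 lay on the origin side and 1 on the far side. The far side held 62.7% of all peaks of the chromosome, and the origin side 58.7% of its span. The share past 50-fold was 0.494% on the origin side (0.226% to 0.935%) and 0.0327% on the far side (0.000828% to 0.182%). The 0.252% of all peaks lies within the origin-side interval and above the far-side one. The single far-side peak, from 31445279 to 31445764, lay close behind the boundary and before the block of dense windows. At 20-fold or more the origin side had 50 peaks, or 2.74% of its peaks (2.04% to 3.60%), and the far side 44, or 1.44% (1.05% to 1.93%). Per Mb the order was the opposite, with 1.60 such peaks on the origin side and 1.997 on the far side. At 10-fold or more the shares were 10.04% (8.70% to 11.5%) and 8.37% (7.41% to 9.41%), and these intervals overlap.

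**Figure D4:**
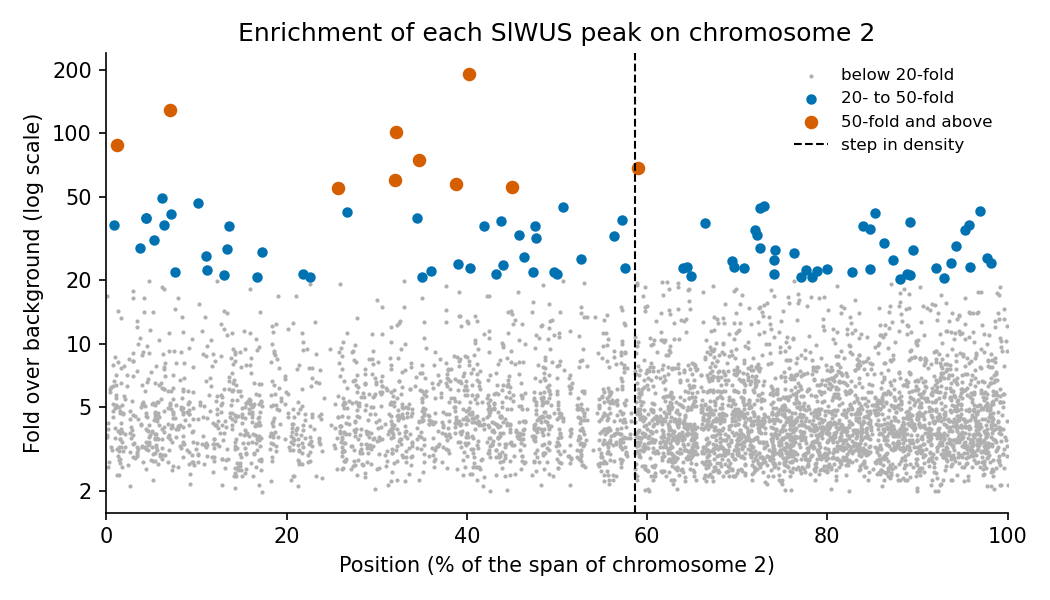
Fold over background (vertical axis, log scale) of each peak on chromosome 2 against its position in % of the span (horizontal axis), with the step in density as a dashed line. Peaks of 50-fold and above (orange) lie before the step but for 1 just behind it, while peaks of 20- to 50-fold (blue) lie along the whole chromosome.

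The far side was denser by 2.73 times (95% interval 2.43 to 3.07) among the weakest peaks, those under the 25th percentile of fold over all peaks. From the 25th to the 50th percentile the ratio was 2.62, from the 50th to the 75th 2.15, from there to 10-fold 2.15, and from 10- to 20-fold 2.26 (1.81 to 2.83). It was 1.49 (0.948 to 2.34) from 20- to 50-fold and 0.158 (0.0036 to 1.14) at 50-fold and above. The interval lay above 1 in each class below 20-fold and included 1 in both classes above it. Classed by fragments at the summit, the ratio was 2.09 in the lowest class, 2.64 from the 50th to the 75th percentile and 1.45 (0.946 to 2.23) above the 98th, so the fall across the lower classes was seen with fold only.

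**Figure D5:**
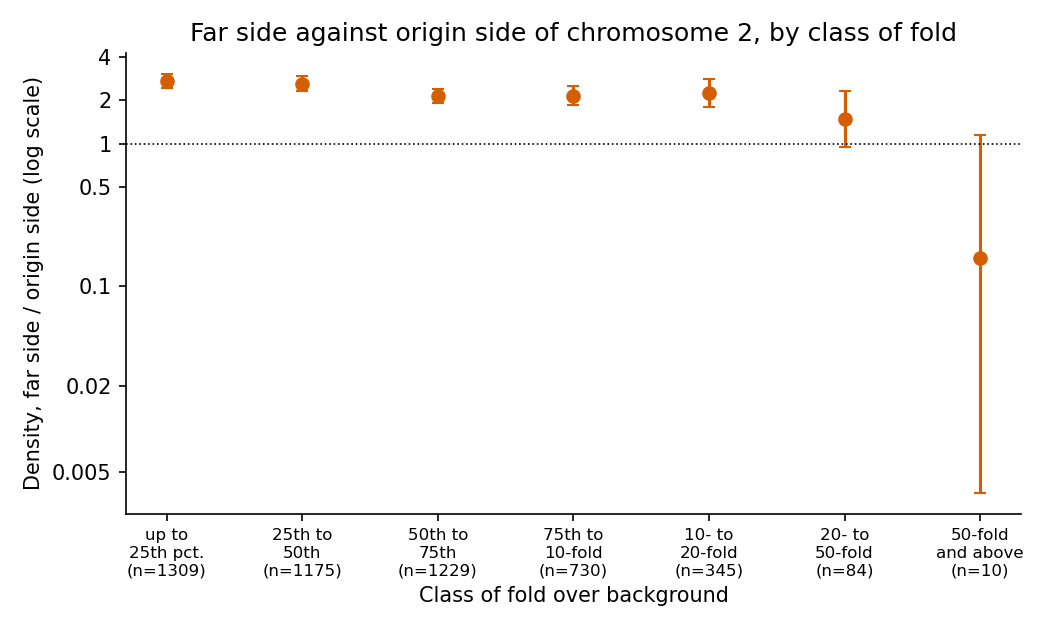
Density on the far side over density on the origin side of chromosome 2 (vertical axis, log scale) for 7 classes of fold (horizontal axis, with the number of peaks), with exact binomial 95% intervals. The ratio lies between 2.15 and 2.73 up to 20-fold and at 0.158 for the 10 peaks of 50-fold and above.

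None of the 10 peaks past 50-fold lay in a dense 1 Mb window, whereas each of the other 11 chromosomes had 2 to 7 such peaks there. The count of 0 among 2947 peaks allows a share of up to about 0.102%, taken as 3 peaks over their number. An exact binomial interval would reach higher. On the other chromosomes the shares ran from 0.0715% to 0.206%, with 31 peaks in 27343 together, or 0.113%. The lowest of these shares lie under the limit of 0.102%, and the joint share lies slightly above it. The limit is approximate and the exact one was not computed, so no difference from the other chromosomes is read from this count. Per Mb, peaks past 50-fold were rarer in dense windows than in the remaining ones on 10 of 12 chromosomes, chromosome 2 among them, and more frequent on 2. The share of peaks past 20-fold was lower in dense windows on 12 of 12 chromosomes, while their number per Mb was higher there on 10 of 12, at 2.05 against 1.59 on chromosome 2.

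The strongest peak of chromosome 2, which was also the strongest of the genome at 190.7-fold, lay from 21446161 to 21446718 at 40.2% of the span. Its summit was covered by 1088 fragments (exact Poisson 95% interval 1024 to 1155) over a background of 4.71. The second, from 3780399 to 3780929, reached 129-fold with 915 fragments (857 to 976) over 6.11. It lay in the sparse first 10% of the span, as did the fourth, from 610706 to 611186, with 88.0-fold and 653 fragments. The intervals of the first and second do not meet, so their order by fragments is beyond counting error.

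A pair of very strong peaks were near neighbours at 32.1% of the span. One, from 17126753 to 17127252, was 101-fold enriched with 541 fragments, and the other, from 17096721 to 17097262, was 59.9-fold enriched with 342. Their summits were 29982 bp apart with no listed peak between them, each being the other's nearest neighbour. The second strongest peak likewise had a strong neighbour 20410 bp away, from 3800809 to 3801466, at 41.4-fold.

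The others of the 10 strongest were found from 18475271 to 18475725 (74.6-fold, 479 fragments), from 31445279 to 31445764 (68.2-fold, 345 fragments), from 20714188 to 20714703 (57.6-fold, 474 fragments), from 23991100 to 23991585 (55.3-fold, 561 fragments) and from 13717757 to 13718244 (54.8-fold, 556 fragments). The order of the last 3 by fold is not their order by fragments, because the background behind them was 7.25, 9.17 and 9.17. Just outside this group was a peak from 3295290 to 3295790 with 49.2-fold, again in the first 10% of the span. In the dense block the strongest peak was 45.2-fold, from 38918504 to 38918989, with 399 fragments (361 to 440) over 7.86.

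Peaks of 20-fold or more were not crowded. The median distance to the nearest peak of any strength was 4406 bp for the 50 on the origin side and 2560 bp for the 44 on the far side, against 3554 and 2156 bp for all peaks of those sides. The closest pair of 20-fold peaks lay 4444 bp apart on the far side, from 45188303 to 45188712 with 22.8-fold and from 45192724 to 45193182 with 35.0-fold. The most crowded 20 kb window, from 40620001 to 40640000 in the densest megabase, held 10 peaks with a median fold of 3.87. A window of 9 peaks on the origin side, from 23440001 to 23460000, had a median fold of 6.03.

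A raised background, at least 2 times the 6.11 fragments that are the median of all peaks, was found at 16 peaks of chromosome 2, or 0.328%, against 0.229% of all peaks. No interval was computed for this share, so no difference from all peaks is read from it. On the origin side all 4 peaks of raised background lay between 23571149 and 23584079, with backgrounds of 19.2, 15.7, 18.8 and 17.5 fragments and folds of 2.38 to 3.36. On the far side 6 of 12 lay between 35695878 and 35712731, with backgrounds of 13.5 to 18.3. That group included stronger peaks, of 6.70-, 9.63- and 7.75-fold. The other 6 were single peaks between 33398595 and 50616613.

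The gene, exon, intron or repeat at these positions was not analysed here, and no base sequence of SL4.0 was used.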

How the data were processed

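Positions came from the deposited list of SlWUS peaks, on SL4.0 per the sequence names in the file. The submitters' processing notes name the aligner Bowtie2 (2.2.5), the peak caller MACS2 (2.1.2) and the annotation package ChIPseeker, with no settings. Total read depth is not known from the list. The fold enrichment, a ratio of pileup to background, and the deposited −log10 p and q were computed by the authors' peak caller. The deposited score column follows from the −log10 q and was not used.

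Fragments and background at each summit were solved from fold and −log10 p under the relations MACS2 uses (pileup plus 1 over background plus 1, Poisson upper tail). A whole number resulted for 65452 of 65452 peaks at a tolerance of 0.001. The lowest −log10 q listed was 1.32.

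Peaks were placed by their summit. Spans ran from 1 to the end of the last peak. Intervals at 95% are exact Poisson for counts, exact binomial for shares and ratios, and from order statistics for medians. The upper limit for a count of 0 was instead taken as 3 over the number of peaks. PCR copies among fragments are unknown. Named peaks are the 10 of highest fold and the 3 widest, with the 3 longest stretches without a peak and the 3 fullest and emptiest 1 Mb windows; others named were chosen after their values were seen. Members, zones and lists were chosen with earlier results of these data known. No test was made between samples, chromosomes or peaks. The recovery of fragments and of the step was tested on simulated data. Gene positions of another assembly were not used. Computation used Python (3.11.15) with scipy (1.17.1), numpy (2.4.6) and pandas (2.3.3), and plots matplotlib (3.10.9).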

Additional observations from a re-analysis of the deposited data

How the results depend on the processing

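The one-sidedness of chromosome 2, the ratio of its ends and the place of the step kept their direction under every alternative tried for them, and chromosome 2 ranked first of 12 by both ratios each time. The last 50% of the span over the first 50% gave 2.19 in place of 2.70. The ends gave 2.33 to 2.45, and the step lay at 31.3 Mb or, with 1 Mb windows, at 31.0 Mb, with 9 of the 10 peaks past 50-fold before it in each case. Keeping only the 3862 peaks with a −log10 q of at least 5 lowered the density to 72.4 per Mb, again rank 3 of 12, widened the median distance to 6995 bp and the median peak to 325 bp, lowered the share of short distances to 18.5%, raised the share past 10-fold to 11.4% and shortened the longest run of dense windows from 21, rank 2 of 12, to 7, rank 4, since fewer peaks remain. The share of distances of 750 to 3000 bp, among those of at least 750 bp, was 30.7%. The longest run was 12, rank 1, with a limit of 120 peaks and 22, rank 2, with a limit of 80. Counting summits within 500 bp once, and ranking by fragments, moved none of the values tried beyond their intervals. The alternatives for the run of dense windows, the place of the strong peaks, and the share of short distances under fewer or joined peaks were chosen after the data were seen. No paired analysis was possible because there is 1 library per group. Pileups near the median, 30 fragments, do not resolve the order of peaks by fold, and no replicate library shows how far the listed peaks would recur.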
